A study of Mus musculus with 6 samples.

Results

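The matrix metalloproteinases (MMPs) and their tissue inhibitors (TIMPs) were described in mouse tongues exposed to a carcinogen, in the presence and absence of Aim2. The 10 genes, Mmp2, Mmp3, Mmp9, Mmp10, Mmp12, Mmp13, Mmp14, Timp1, Timp2 and Timp3, were picked by symbol from a table of 35275 genes, and each matched 1 row. RNA was sequenced in bulk from tongues of 3 Aim2 KO and 3 WT mouse libraries. All 6 libraries came from mice that drank water with 100 µg/ml of 4NQO (4-nitroquinoline 1-oxide) for 20 weeks, so there was no group without carcinogen. 4NQO is a DNA-damaging compound that produces squamous lesions of the oral epithelium, and the product of Aim2 detects DNA in the cytosol and assembles an inflammasome. The labels give no strain, age or sex. They do not say whether each library was 1 mouse, and the p-values therefore reflect only how far these libraries vary, which may be technical. They also do not say which part of Aim2 the knockout removes.

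MMPs are zinc endopeptidases that are secreted or held at the cell surface as inactive precursors and, once activated, cleave collagens, laminins, elastin and other matrix proteins. TIMPs bind the active site of MMPs and block it, so the balance between the families bears on how much matrix is degraded. In oral epithelium MMPs are known for wound repair, when keratinocytes cross the provisional matrix, and for invasion by squamous carcinoma, and much of the MMP2, MMP14 and TIMP RNA of a tissue comes from connective tissue cells.

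Of the 10 genes, 4 lie together on mouse chromosome 9 in a cluster of related proteases, Mmp13 at chr9:7272514-7283333, Mmp12 at chr9:7344381-7369499, Mmp3 at chr9:7445822-7455972 and Mmp10 at chr9:7502352-7510238, all on the plus strand (coordinates as deposited, read as GRCm38). The others are spread over 6 chromosomes, with Mmp9 at chr2:164940780-164955850, Mmp2 at chr8:92827328-92853417, Mmp14 at chr14:54431604-54441258, Timp1 at chrX:20870166-20874735, Timp3 at chr10:86300372-86349506 and Timp2, on the minus strand, at chr11:118301069-118355740. The sequence before the start of these genes is shown because many inducible MMP promoters are known for an AP-1 site, which binds Fos and Jun proteins, next to a TATA box. RefSeq sequences of GRCm38.p6, each from 250 bases before to 50 bases after a start, were matched by symbol for 8 of the 10 genes (9 windows), all but Mmp2 and Mmp9. Below are 120 bases of 7 windows, from 100 bases before the start to 20 bases after it, 5′ to 3′ on the plus strand, with the AP-1 letters (TGAGTCA, or TGACTCA for the other strand) and the TATA box letters (TATAAA) in capitals. The Mmp13 stretch is chr9:7272414-7272533, that of Mmp3 is chr9:7445722-7445841, and that of Mmp10 is chr9:7502242-7502361. The stretches of the 2 annotated Mmp12 starts are chr9:7344297-7344416 for the first and chr9:7347274-7347393 for the second. Mmp14 at chr14:54431498-54431617 and Timp1 at chrX:20870066-20870185 are given for contrast.
Mmp13: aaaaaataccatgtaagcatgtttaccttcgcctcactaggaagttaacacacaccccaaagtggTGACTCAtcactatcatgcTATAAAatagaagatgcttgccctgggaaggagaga
Mmp3: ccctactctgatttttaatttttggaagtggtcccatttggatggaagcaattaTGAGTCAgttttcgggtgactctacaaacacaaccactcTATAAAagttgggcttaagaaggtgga
Mmp10: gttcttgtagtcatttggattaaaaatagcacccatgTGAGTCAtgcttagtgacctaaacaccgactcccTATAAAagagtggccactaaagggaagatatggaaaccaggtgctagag
Mmp12 first start: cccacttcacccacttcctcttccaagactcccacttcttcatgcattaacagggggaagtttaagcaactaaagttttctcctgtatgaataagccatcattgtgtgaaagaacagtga
Mmp12 second start: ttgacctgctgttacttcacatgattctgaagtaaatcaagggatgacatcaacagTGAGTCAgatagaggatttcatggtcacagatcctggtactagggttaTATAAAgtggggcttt
Mmp14: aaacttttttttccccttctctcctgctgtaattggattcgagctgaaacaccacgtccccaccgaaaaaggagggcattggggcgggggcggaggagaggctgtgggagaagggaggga
Timp1: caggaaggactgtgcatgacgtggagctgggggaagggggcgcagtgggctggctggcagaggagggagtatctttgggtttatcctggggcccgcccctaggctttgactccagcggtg
The AP-1 letters were in 4 of the 9 windows, once each, and all 4 belonged to the chromosome 9 genes. They began 35 bases before the annotated start in Mmp13, 46 in Mmp3, 63 in Mmp10 and 44 before the second start of Mmp12. Of all 32851 windows of this length, 5.20% held them on either strand. TATAAA, or TTTATA for the other strand, was in the same 4 windows and in 13.6% of all windows. It began 16 bases before the annotated start in Mmp13, 7 in Mmp3 and 29 in Mmp10. In Mmp12 it began after the second start, at base 5. AGGAAG, or CTTCCT for the other strand (the PEA3 site of ETS factors), was in 6 of the 9 and in 35.4% of all. None of these matches overlapped another in the 9 windows. A match of letters is a description and no evidence of binding.

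Expression was deposited as FPKM, fragments per kilobase of gene length scaled to the size of the library, which lets genes be compared per length. The reads recovered from these values totalled 21959204 to 25369400 per library. Aim2 itself had 3, 4 and 10 reads in Aim2 KO replicates 1 to 3, against 14, 25 and 30 reads in WT replicates 1 to 3 (exact permutation test on FPKM, two-sided, p = 0.1, the smallest that 3 against 3 allows). The tongue markers fixed for the check were abundant but for Tnnc2, with 11 of 12 skeletal muscle genes and all 10 basal and 10 suprabasal keratinocyte genes tested. Tnnc2, the muscle gene not tested, had at most 0.114 FPKM in any library, and the reason was not examined. Aim2 KO replicate 1 stood apart in its tissue markers. Its mean log2(FPKM + 1) was 8.82 for skeletal muscle, 2.18 for fibroblasts and 1.71 for endothelial cells, against 9.61 to 9.97, 2.74 to 3.73 and 2.14 to 2.95 in the other 5 libraries. Aim2 KO replicate 2 alone held 125 reads of Ngp, a granule protein gene of neutrophil precursors that had 0 reads in the other 5 libraries.

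The comparison of the genotypes asked whether MMP and TIMP transcripts differ when Aim2 is absent. None of the 10 genes was called, and for each of them the 2 groups overlapped. The 3 most abundant, Timp2, Mmp14 and Mmp2, differed between the groups on the log2 scale by less than the pooled SD within them. The differences were -0.10, 0.10 and 0.11, and the pooled SDs 0.30, 0.16 and 0.19. Mmp3, Mmp9 and Mmp13 had large differences between libraries of the same genotype. Genes were kept where the 6 libraries averaged 1 FPKM or more (12144 genes), and log2(FPKM + 1) was tested with limma and Benjamini-Hochberg adjustment. Of the 10 genes, 8 were tested, 0 passed an adjusted p of 0.05 (adjusted p = 0.9998 for each of the 8), and 0 had an unadjusted p under 0.05. Among all genes tested 0.00823% were called. An unadjusted p under 0.05 was found for 2.5% of them (1.93% higher and 0.576% lower in Aim2 KO), and the groups did not overlap for 6.46% (4.98% higher and 1.48% lower in Aim2 KO). The log2 difference, Aim2 KO minus WT, was positive for 6 of the 8 tested genes and for 57.2% of all tested genes, and its median was 0.11 for the 8 and 0.02 for all. Mmp10 and Mmp12 had means under 1 FPKM and are given by their values.

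**Figure D1:**
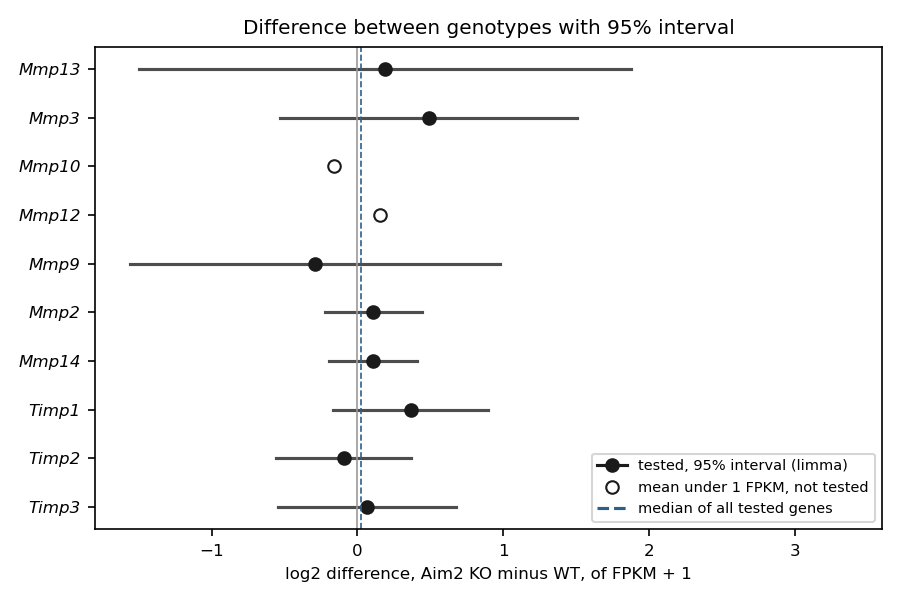
Log2 difference of FPKM + 1, Aim2 KO minus WT (horizontal axis), for the 10 genes. Filled points have a 95% limma interval, open points are the 2 genes below the expression filter, and the dashed line is the median of all 12144 tested genes at 0.02. All 8 intervals include 0, and those of Mmp13, Mmp9 and Mmp3 are the widest.

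Mmp13 encodes collagenase 3, which cleaves fibrillar collagen and is known in wound-edge keratinocytes and squamous carcinoma. It had 7.51, 0.568 and 0.681 FPKM in Aim2 KO replicates 1 to 3, against 4.52, 0.847 and 0.486 FPKM in WT replicates 1 to 3, which rested on 453, 38 and 40 reads against 297, 55 and 33 reads. One library of each genotype, replicate 1 in both, was high, and the other 4 lay below 1 FPKM. The exact Poisson intervals (95%, counting error only) were 6.84 to 8.24 FPKM in Aim2 KO replicate 1 and 0.402 to 0.780 FPKM in Aim2 KO replicate 2, so the gap between these libraries was far beyond counting error. The group means were 2.92 ± 3.98 FPKM in Aim2 KO and 1.95 ± 2.23 FPKM in WT (SD, n = 3 each), with a log2 difference of 0.19 (interval -1.50 to 1.88). The direction rested on single libraries, since the difference was -0.61 without Aim2 KO replicate 1 and 0.77 without WT replicate 1. Of the 12144 tested genes only 0.305% had a larger range over the 6 libraries on this scale than the 2.52 of Mmp13.

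Mmp3 encodes stromelysin 1, which degrades proteoglycans and laminin and activates other pro-MMPs. It had 2.12, 7.85 and 1.62 FPKM in Aim2 KO replicates 1 to 3, against 2.69, 1.26 and 2.15 FPKM in WT replicates 1 to 3. Aim2 KO replicate 2 alone was high, with 353 reads against 55 to 119 in the other 5 libraries, among which the genotypes were intermixed. The means were 3.87 ± 3.46 FPKM in Aim2 KO and 2.03 ± 0.723 FPKM in WT, and the log2 difference of 0.49 (interval -0.53 to 1.51) became -0.056 without Aim2 KO replicate 2. The same library held the Ngp reads, 60 of the reads of the granule gene Camp against 0 to 3 elsewhere, and the highest fibroblast marker level (3.73). The part of these in the level of Mmp3 was not tested.

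Mmp10 encodes stromelysin 2, a protease of migrating keratinocytes. It had 19, 1 and 3 reads in Aim2 KO replicates 1 to 3, against 17, 16 and 8 reads in WT replicates 1 to 3, or 0.490, 0.0233 and 0.0794 FPKM against 0.402, 0.383 and 0.183 FPKM. Aim2 KO replicate 1 and WT replicates 1 and 2 were the 3 highest, the same 3 libraries as for Mmp9 below. The Poisson interval of Aim2 KO replicate 2, up to 0.130 FPKM, lay below those of the 3 highest libraries, the lowest bound of which was 0.219 FPKM. Reads of Mmp3 and Mmp10 could be split between these related genes, so the lower of them is the less certain.

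Mmp12 encodes macrophage elastase. It had 0.575, 0.796 and 1.06 FPKM in Aim2 KO replicates 1 to 3, against 0.636, 0.801 and 0.423 FPKM in WT replicates 1 to 3, on 48 to 104 reads per library. The lowest library was WT replicate 3, the highest was Aim2 KO replicate 3, and the groups overlapped. Of the 12 macrophage and monocyte markers 10 were tested, 0 were called and all 10 had positive differences (median 0.39). The groups did not overlap for 2 of them, both higher in Aim2 KO, where 4.98% of all tested genes were higher without overlap. One of these 2 is Ccr2, which averaged 0.703 FPKM in WT. Ccr2 and Itgam averaged under 1 FPKM in WT and were tested only because Aim2 KO was high, a condition on these counts. The mean log2 level of the 10 tested macrophage and monocyte markers was 2.50, 3.21 and 3.30 in the Aim2 KO libraries, against 2.47, 2.60 and 2.66 in the WT libraries. Its part in the level of Mmp12 was not tested. The Mmp12 span shares 1261 bases with Mmp1b on the other strand. Mmp1b had 2 reads in all, and whether reads of the shared stretch were counted under the wrong gene was not examined.

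The cluster holds 10 Mmp genes over 427 kb, and the 6 that are not among the described genes were near silent. Mmp8, the neutrophil collagenase, had 29 reads over all libraries, 19 of them in Aim2 KO replicate 2, the library with the Ngp reads. Mmp1a, Mmp27 and Mmp20 had 1 read each, Mmp1b had 2 and Mmp7 had 0. The genes differed in which libraries were high. Mmp13 and Mmp10 were highest in both replicates numbered 1, Mmp10 being nearly as high in WT replicate 2, Mmp3 was high in Aim2 KO replicate 2, and Mmp12 stayed between 0.423 and 1.06 FPKM.

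**Figure D2:**
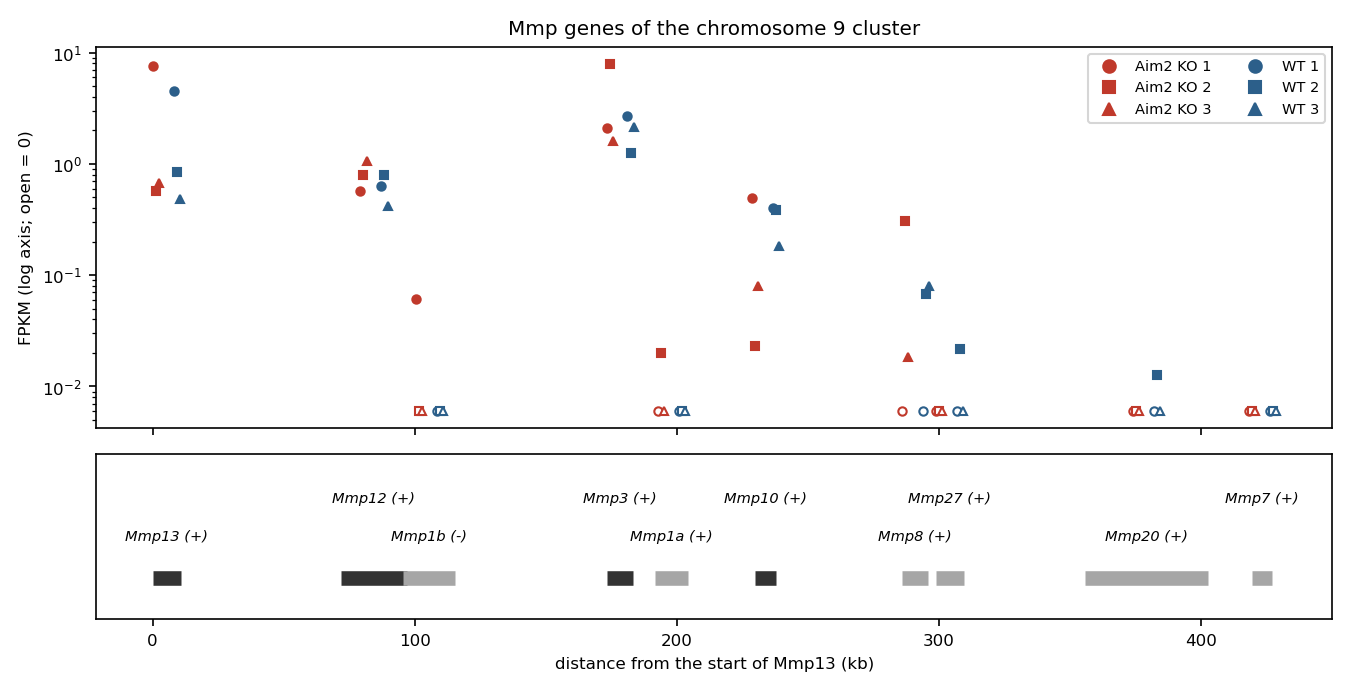
FPKM in each library (upper panel, log axis, open symbols at the bottom for 0) and gene positions in kb from the start of Mmp13 (lower panel, dark for described genes, grey for others) across the chromosome 9 cluster. Mmp13 is highest in Aim2 KO replicate 1 and WT replicate 1, at 7.51 and 4.52 FPKM, Mmp3 in Aim2 KO replicate 2 at 7.85 FPKM, and 6 genes stay below 0.31 FPKM.

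The gelatinases cleave denatured collagen and the type IV collagen of basement membranes. Mmp9, gelatinase B, is made by keratinocytes, macrophages and neutrophils. It had 4.54, 0.731 and 0.516 FPKM in Aim2 KO replicates 1 to 3, against 3.28, 2.80 and 0.646 FPKM in WT replicates 1 to 3. The libraries fell into 3 high and 3 low, with 1 Aim2 KO and 2 WT libraries on the high side. The means were 1.93 ± 2.26 FPKM in Aim2 KO and 2.24 ± 1.40 FPKM in WT, with a log2 difference of -0.29 (interval -1.56 to 0.98). It was -0.89 without Aim2 KO replicate 1 (unadjusted p = 0.043, adjusted p = 0.697 by limma) and 0.050 without Aim2 KO replicate 3. It was also larger with array quality weights, at -0.99 (unadjusted p = 0.0198, adjusted p = 0.299 by limma).

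Neutrophil genes were set beside Mmp9, because neutrophils store its protein. Ngp, Camp and Elane, genes of neutrophil precursors, had 0 reads in Aim2 KO replicate 1 and in WT replicate 1, both high in Mmp9, and 0, 3 and 0 reads in WT replicate 2, also high in it. Aim2 KO replicate 2, where these genes had 125, 60 and 8 reads, was low in Mmp9. Retnlg, another neutrophil gene, had 7, 28 and 0 reads in Aim2 KO replicates 1 to 3, against 7, 0 and 5 reads in WT replicates 1 to 3, and Stfa2l1 had 1, 3 and 0 reads in Aim2 KO against 9, 1 and 3 reads in WT. Cxcr2, a receptor of mature neutrophils, had 0.714, 0.565 and 0.389 FPKM in the Aim2 KO libraries, against 0.521, 0.514 and 0.608 FPKM in the WT libraries. S100a8 and S100a9, which stressed keratinocytes also express, were highest in Aim2 KO replicate 1, at 3040 and 3745 FPKM, then in WT replicate 1, at 1575 and 1922 FPKM. They were 468 and 631 FPKM in Aim2 KO replicate 2 and 363 and 427 FPKM in Aim2 KO replicate 3, against 1057 to 1068 and 1245 to 1293 FPKM in WT replicates 2 and 3. The summed level of the other 10 neutrophil markers was 0.848 to 12.2 FPKM in Aim2 KO and 1.18 to 2.11 FPKM in WT. Their part in the level of Mmp9 was not tested.

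Mmp2, gelatinase A, is made mainly by fibroblasts and is activated at the cell surface by Mmp14 together with Timp2. It had 17.2, 24.6 and 21.1 FPKM in Aim2 KO replicates 1 to 3, against 17.7, 20.7 and 19.2 FPKM in WT replicates 1 to 3. The WT libraries lay within the range of the Aim2 KO libraries. The log2 difference was 0.11 (interval -0.22 to 0.44), so that a change larger than 0.44 in either direction was outside the interval on this scale.

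Mmp14 encodes MT1-MMP, the membrane-bound protease that activates pro-MMP2 and cleaves collagen around the cell. It had 30.7, 23.5 and 24.9 FPKM in Aim2 KO replicates 1 to 3, against 23.4, 22.8 and 26.9 FPKM in WT replicates 1 to 3. Aim2 KO replicate 1 was the highest and the other 5 were intermixed. The log2 difference was 0.10 (interval -0.20 to 0.41), and -0.0068 without Aim2 KO replicate 1. The range of Mmp14 over the libraries, 0.41 on the log2 scale, was below the 0.45 that was the median of all tested genes, and 56.3% of these had a larger one.

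**Figure D3:**
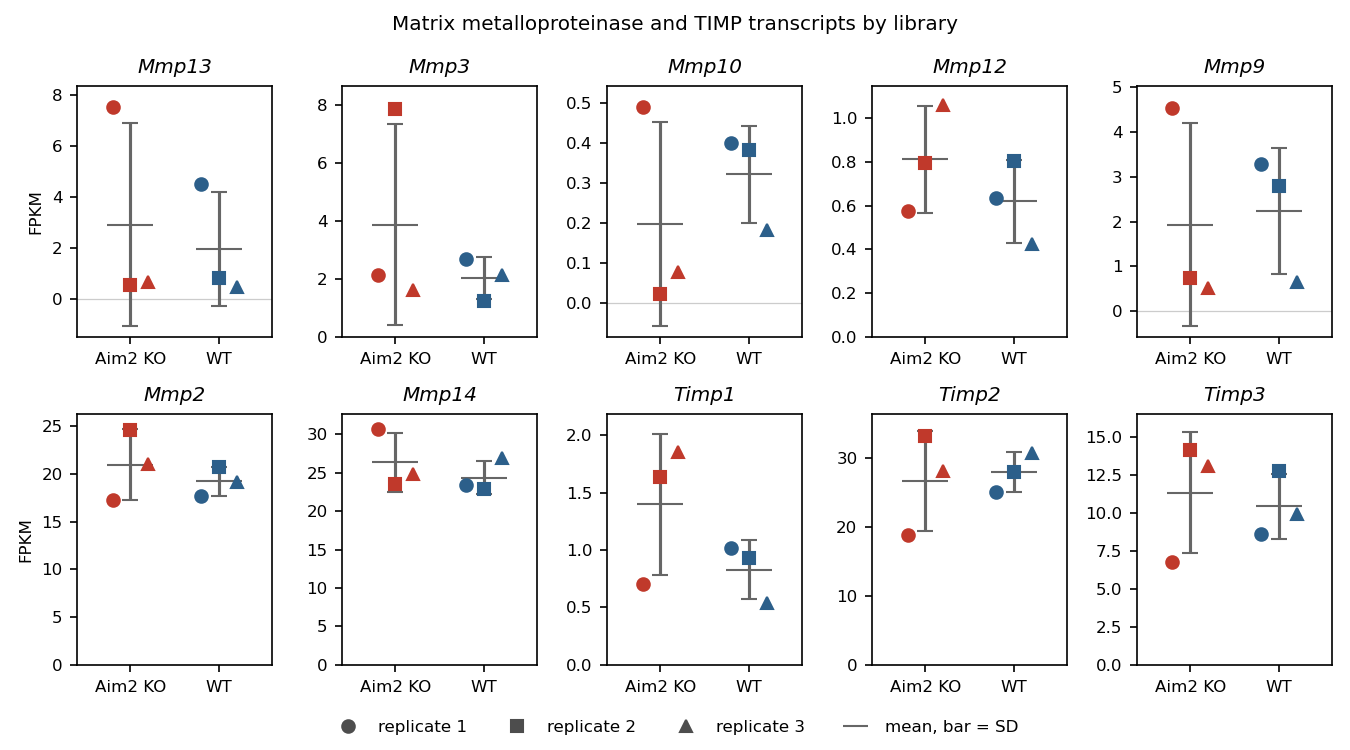
FPKM (vertical axes, linear, each with its own scale) of the 10 genes in 3 Aim2 KO libraries (left, red) and 3 WT libraries (right, blue). Symbols give the replicate number, horizontal lines the mean and bars the SD. The groups overlap in all 10 panels, and Aim2 KO replicate 2 is far above the other libraries for Mmp3.

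Among the inhibitors, Timp1 is the inducible one, raised by cytokines and growth factors. It had 0.703, 1.63 and 1.86 FPKM in Aim2 KO replicates 1 to 3, against 1.01, 0.933 and 0.536 FPKM in WT replicates 1 to 3, on 14, 36 and 36 reads against 22, 20 and 12 reads. Aim2 KO replicates 2 and 3 lay above all WT libraries, and Aim2 KO replicate 1 lay below 2 of them. The means were 1.40 ± 0.611 FPKM in Aim2 KO and 0.827 ± 0.256 FPKM in WT, with a log2 difference of 0.37 (interval -0.17 to 0.90, limma unadjusted p = 0.150). Without Aim2 KO replicate 1 it was 0.60 (unadjusted p = 0.008, adjusted p = 0.382 by limma). The mean of Timp1 in WT was under 1 FPKM, so it reached the expression filter through the Aim2 KO libraries. Of the 12 genes of the general leukocyte list 10 were tested and 0 were called. All 10 had positive differences, by a median of 0.73, and 9 of them did not overlap between groups, where 4.98% of all tested genes were higher without overlap. Of these 10 genes, Rac2 and Ptprc averaged under 1 FPKM in WT and were tested only because Aim2 KO was high, a condition on these counts. The summed level of the 12 listed genes was 65.8 to 94.0 FPKM in Aim2 KO and 36.8 to 43.2 FPKM in WT, and their part in the level of Timp1 was not tested.

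Timp2 inhibits MMPs and also takes part in activating pro-MMP2. It had 18.8, 33.1 and 28.0 FPKM in Aim2 KO replicates 1 to 3, against 25.0, 27.9 and 30.7 FPKM in WT replicates 1 to 3. Aim2 KO held both the lowest and the highest library. The log2 difference was -0.10 (interval -0.56 to 0.37), and 0.13 without Aim2 KO replicate 1.

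Timp3 binds to the matrix and also inhibits ADAM proteases. It had 6.77, 14.1 and 13.1 FPKM in Aim2 KO replicates 1 to 3, against 8.63, 12.8 and 9.92 FPKM in WT replicates 1 to 3. The lowest library was again Aim2 KO replicate 1, the other two Aim2 KO libraries were the highest, and the groups overlapped. The log2 difference was 0.07 (interval -0.54 to 0.68), and 0.37 without Aim2 KO replicate 1 (unadjusted p = 0.045, adjusted p = 0.706 by limma). Each TIMP span overlaps another gene. Timp1 lies within the span of Syn1 (60 reads in all, against 140 for Timp1) and Timp3 within that of Syn3 (70 reads, against 7405), both on the other strand. Timp2 overlaps BC100451 (140 reads, against 14602) on its own strand. Whether counting used the strand is not given in the sources used here, and whether the exons of these genes overlap was not examined, so the level of Timp1 is less certain where reads could have been shared with Syn1.

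Ordered by level over all 6 libraries, the means were 27.3 FPKM for Timp2, 25.3 for Mmp14, 20.1 for Mmp2, 10.9 for Timp3, 2.95 for Mmp3, 2.44 for Mmp13, 2.09 for Mmp9, 1.11 for Timp1, 0.715 for Mmp12 and 0.260 for Mmp10. The libraries of Timp2, Mmp14 and Mmp2 overlapped, those of Timp3 (6.77 to 14.1 FPKM) lay below all 3, and those of Mmp3, Mmp13 and Mmp9 overlapped widely. The 7 MMPs summed to 63.2, 58.1 and 49.9 FPKM in Aim2 KO replicates 1 to 3, against 52.6, 49.7 and 49.9 FPKM in WT replicates 1 to 3, and the 3 TIMPs to 26.3, 48.9 and 43.0 FPKM against 34.6, 41.6 and 41.2 FPKM. Mmp2 and Mmp14 gave 75.9% to 92.1% of the MMP sum in Aim2 KO and 78.1% to 92.2% in WT. The ratio of MMP to TIMP transcripts was 2.41, 1.19 and 1.16 in Aim2 KO, against 1.52, 1.19 and 1.21 in WT. It was highest in replicate 1 of each genotype and lay between 1.16 and 1.21 in the other 4 libraries. This ratio counts transcripts and not active protein.

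**Figure D4:**
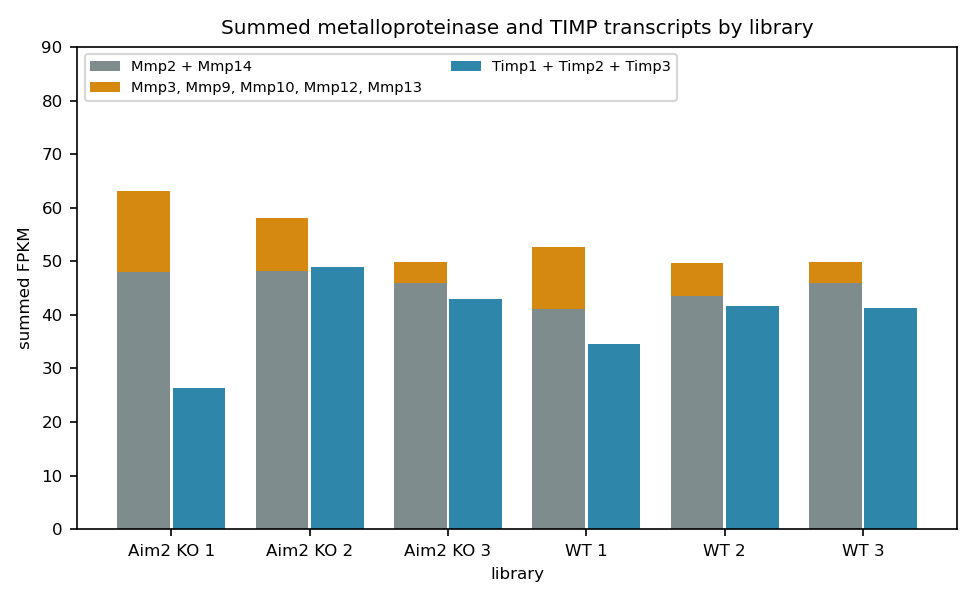
Summed FPKM (vertical axis, from 0) of the 7 MMPs (stacked: Mmp2 and Mmp14 in grey, the other 5 in orange) and of the 3 TIMPs (blue) in each library, Aim2 KO left and WT right. The orange part is largest in Aim2 KO replicate 1, at 15.2 FPKM, and in WT replicate 1, at 11.5 FPKM, where the TIMP sums are the lowest, at 26.3 and 34.6 FPKM.

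For all 10 genes the range of FPKM within Aim2 KO was wider than the difference between the genotype means. Aim2 KO replicate 1 and WT replicate 1 were the highest in Mmp13, Mmp9 and Mmp10 and, of their own genotype, the lowest in Mmp2, Timp2 and Timp3. They were also the lowest of their genotype in the fibroblast level (2.18 and 2.74) and the endothelial level (1.71 and 2.14). The fibroblast list had all 10 genes tested, 0 called, and a summed level of 131 to 328 FPKM in Aim2 KO and 178 to 231 FPKM in WT. In bulk tissue, fewer fibroblasts and less RNA per fibroblast cannot be told apart. With the fibroblast level as a covariate, a fit chosen after seeing the data, 0 of the 8 tested genes were called. The interval of Mmp13 was -0.45 to 0.96, that of Timp3 -0.17 to 0.25, that of Mmp2 -0.09 to 0.29 and that of Mmp3 -0.46 to 1.41, the last close to its interval without the covariate. Those of Mmp9, Mmp14, Timp1 and Timp2 were -1.09 to 0.58, -0.11 to 0.33, -0.04 to 0.75 and -0.34 to 0.11. The part of fibroblasts in these levels was not tested. For basal keratinocyte markers the level was 7.07, 6.67 and 6.83 in the Aim2 KO libraries, against 6.80, 6.65 and 7.08 in the WT libraries. The highest was WT replicate 3, low in Mmp13 and Mmp9, followed by Aim2 KO replicate 1, high in both. Krt14 was highest in Aim2 KO replicate 1 and then WT replicate 1, which held for no other of the 10 markers. Krt5, Trp63 and Cdh3 were highest in Aim2 KO replicate 1 and then WT replicate 3, and Krt15 in Aim2 KO replicate 1 and then WT replicate 2. Itga6, Itgb4, Col17a1, Dst and Lamb3 were highest in WT replicate 3. The part of keratinocytes in the levels of Mmp13 and Mmp9 was not tested. Skeletal muscle markers (11 tested, 0 called, median difference -0.21), endothelial markers (10 tested, 0 called, median 0.04) and suprabasal markers (10 tested, 0 called, median -0.04) are also in the plot of deviations. Library names begin alike within a genotype and differently between genotypes, and anything else that this marks cannot be told apart from Aim2 status.

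**Figure D5:**
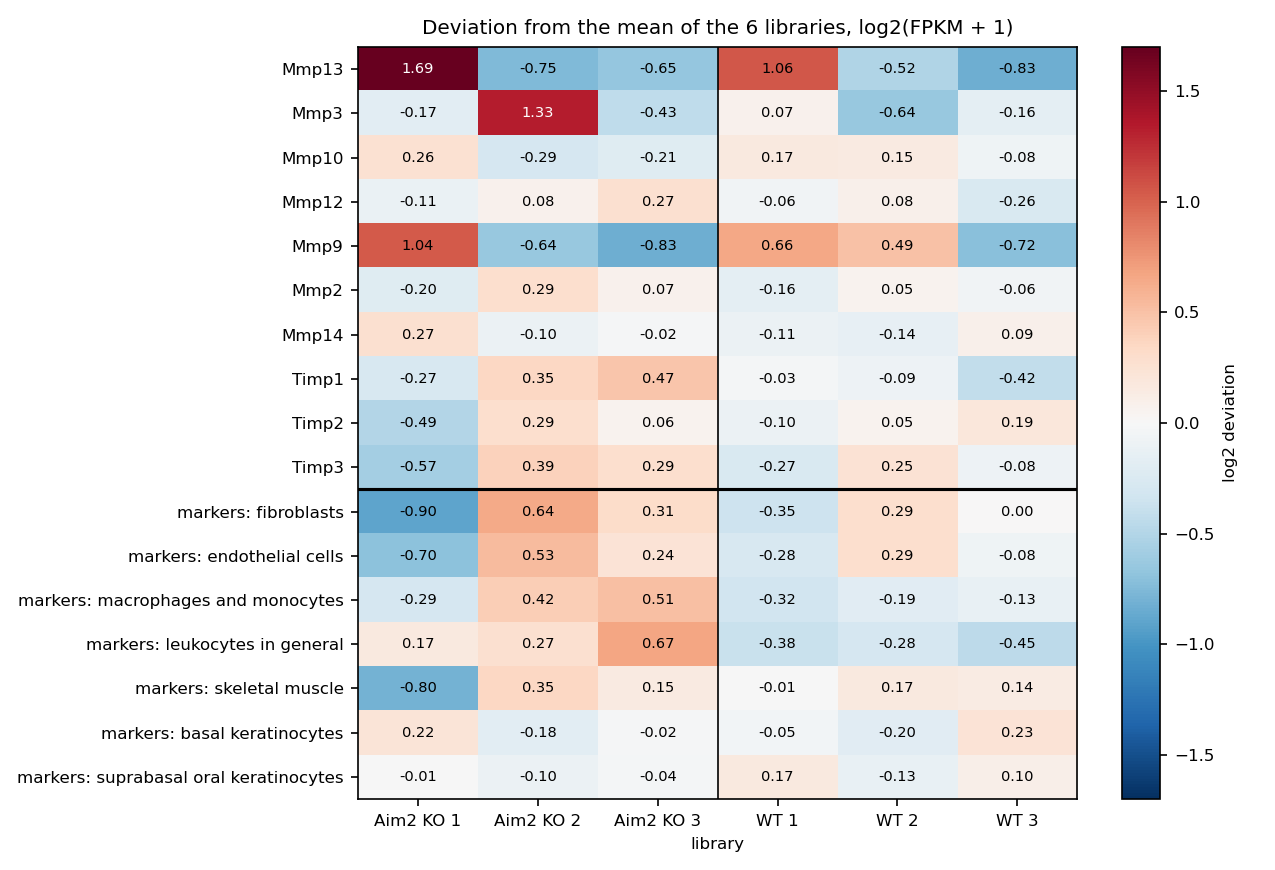
Deviation of log2(FPKM + 1) in each library (columns, Aim2 KO left of WT) from the mean of the 6 libraries, for the 10 genes and, under the line, for the mean level of 7 marker lists. Red is above and blue below the mean. Aim2 KO replicate 1 is at 1.69 for Mmp13 and 1.04 for Mmp9, and at -0.90 for fibroblast markers and -0.57 for Timp3.

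Genes that act on MMPs were examined as lists. Among activators, the plasminogen activator and proprotein convertase list had 11 of 14 genes tested, 0 called in either direction and a median difference of 0.00. Plaur, the urokinase receptor, had 4.64, 4.01 and 3.88 FPKM in Aim2 KO replicates 1 to 3, against 3.23, 2.72 and 1.98 FPKM in WT replicates 1 to 3 (log2 difference 0.52, unadjusted p = 0.011, adjusted p = 0.9998 by limma). Its groups did not overlap, where 4.98% of all tested genes were higher without overlap. Macrophages and neutrophils also express it. The channel-activating protease gene Prss8 averaged 20.0 ± 3.05 FPKM in Aim2 KO and 22.5 ± 2.04 FPKM in WT. Of the other inhibitors and clearance receptors 6 of 12 genes were tested and 0 called (median -0.11). Thbs1, thrombospondin 1, had the smallest p of these, with 3.63, 4.51 and 4.93 FPKM in Aim2 KO replicates 1 to 3, against 3.48, 4.21 and 3.72 FPKM in WT replicates 1 to 3.

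Among the transcription factors that bind AP-1, ETS and RUNX sites, 14 of 15 genes were tested and 0 were called. An unadjusted p under 0.05 was found for 3 of them, and for 2.5% of all tested genes. Fosl1, the AP-1 protein FRA1, had 16.3, 7.45 and 9.28 FPKM in Aim2 KO replicates 1 to 3, against 7.55, 5.33 and 6.49 FPKM in WT replicates 1 to 3. It was highest in replicate 1 of each genotype. Fos averaged 6.69 ± 1.44 FPKM in Aim2 KO and 9.57 ± 2.36 FPKM in WT (log2 difference -0.45), the opposite direction to Fosl1 (0.63). Runx2, a known regulator of Mmp13 in bone, had 2.58, 2.27 and 2.62 FPKM in Aim2 KO against 1.69, 1.90 and 1.99 FPKM in WT. Its groups did not overlap, where 4.98% of all tested genes were higher without overlap. Its highest library was Aim2 KO replicate 3, followed by Aim2 KO replicate 1. Junb, named after its values were seen, had 192, 107 and 102 FPKM in Aim2 KO against 150, 97.4 and 109 FPKM in WT, again highest in replicate 1 of each genotype. Jund was also highest in replicate 1 of each genotype. The other listed Fos, Jun and Atf genes were not. Within WT, Fos, Fosb, Jun and Atf3 were highest in replicate 2 and Fosl2 in replicate 3. The part of these genes in the level of Mmp13 was not tested.

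Of the cytokine and growth factor genes known to induce MMPs, 9 of 12 were tested and 0 called (median 0.06). Il1b averaged 3.71 ± 2.08 FPKM in Aim2 KO and 1.82 ± 0.970 FPKM in WT. Il17a had 5.53, 0.752 and 0.817 FPKM in Aim2 KO replicates 1 to 3, against 1.81, 0.457 and 0.606 FPKM in WT replicates 1 to 3. Hbegf, an EGF receptor ligand named after its values were seen, had 30.8, 11.8 and 8.83 FPKM in Aim2 KO against 21.4, 10.1 and 15.8 FPKM in WT. Il17a and Hbegf were both highest in replicate 1 of each genotype, the libraries with high Mmp13. Of the other tested genes of this list, Il1a, Il1b, Tnf and Il17f were also highest there, and Tgfb1, Tgfb2 and Tgfa were not. The part of these genes in the level of Mmp13 was not tested.

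Of the matrix genes that MMPs cleave, 19 of 21 were tested and 0 called (9 higher, 10 lower, median -0.01). Col7a1, the anchoring fibril collagen, had 3.40, 4.62 and 4.13 FPKM in Aim2 KO replicates 1 to 3, against 4.38, 6.06 and 6.19 FPKM in WT replicates 1 to 3 (log2 difference -0.37, unadjusted p = 0.048, adjusted p = 0.9998 by limma). Tnc, tenascin C, averaged 2.66 ± 0.276 FPKM in Aim2 KO and 3.29 ± 0.816 FPKM in WT. The related ADAM and ADAMTS proteases had 7 of 19 genes tested and 0 called (6 higher, median 0.16). Adam17, which sheds cytokines and EGF receptor ligands, averaged 12.2 ± 0.567 FPKM in Aim2 KO and 10.3 ± 1.18 FPKM in WT, with overlapping groups. Cell surface partners of MMPs had 8 of 9 genes tested and 0 called (median 0.03). Cd44, the hyaluronan receptor that holds MMP9 at the surface, averaged 58.6 ± 11.7 FPKM in Aim2 KO and 54.1 ± 10.3 FPKM in WT.

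Of the remaining MMP genes and Timp4, 3 of 17 were tested and 0 called. Timp4, the TIMP of striated muscle, had 2.57, 5.96 and 6.66 FPKM in Aim2 KO replicates 1 to 3, against 8.02, 7.91 and 5.76 FPKM in WT replicates 1 to 3. Its lowest library was Aim2 KO replicate 1, where skeletal muscle markers were also lowest. Its highest, WT replicate 1, had the next lowest skeletal muscle level (9.61). The part of skeletal muscle in the level of Timp4 was not tested. Mmp15, a membrane-bound MMP, averaged 9.53 ± 0.988 FPKM in Aim2 KO and 9.08 ± 1.89 FPKM in WT, and Mmp28, epilysin, 2.62 ± 0.287 FPKM in Aim2 KO and 2.98 ± 0.384 FPKM in WT. Mmp25, named after its values were seen, encodes leukolysin, a membrane-anchored MMP of leukocytes, and lay under the expression filter. It had 0.408, 0.380 and 0.527 FPKM in Aim2 KO replicates 1 to 3, against 0.0724, 0.220 and 0.152 FPKM in WT replicates 1 to 3, on 31, 32 and 39 reads against 6, 18 and 13 reads. All 3 Aim2 KO libraries lay above all WT libraries. With a filter at 0.1 FPKM its log2 difference was 0.33 (interval 0.10 to 0.55, unadjusted p = 0.011, adjusted p = 0.9998 by limma), and 5.5% of the 16604 genes of that fit were higher in Aim2 KO without overlap. The general leukocyte markers, of which 0 were called, summed to 65.8 to 94.0 FPKM in Aim2 KO and 36.8 to 43.2 FPKM in WT, and their part in the level of Mmp25 was not tested.

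The tested genes whose log2 levels followed each member most closely over the 6 libraries were found by Pearson's r, as a description. These were Tomm20 and Ap2s1 for Mmp13 (r = 0.995 each), Ostm1 and Chpf2 for Mmp3 (0.982 and 0.980), and Psmb5 and Rplp2 for Mmp9 (0.992 and 0.986). For Mmp2 they were Rom1 and Mrpl49 (0.994 and 0.992), and for Mmp14 Mob1b and Ncl (0.993 each). For the TIMPs they were Trim30a and Ifi44 for Timp1 (0.992 and 0.990), Fam160a1 and Snx19 for Timp2 (0.998 and 0.997), and Lrrn4cl and Tbc1d9b for Timp3 (0.997 each). The points of each correlation are the same 6 libraries, which for Mmp13 and Mmp9 fall into high and low ones.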

How the data were processed

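Per the labels' protocols, RNA came from homogenized tongues and libraries were made by Novogene. The table deposited by the authors holds FPKM per gene for each of the 6 libraries. Which aligner, counter, strand setting, build and annotation were used is not given in the sources used here. GENCODE M21 holds 34490 of its gene IDs, 72.2% of them at identical coordinates, so the table is read as GRCm38. Multiplied by gene length, 100% of values above 0 gave whole reads (tolerance 0.01 of a read), which were used for read numbers and intervals. FPKM divides by the library total, so abundant genes shift all others.

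The test was limma 3.58.1 (R 4.3.3, intensity trend, two-sided) on log2(FPKM + 1), a scale that understates changes of low genes, over genes averaging 1 FPKM or more, with genotype as the only term and a threshold of 0.05. It was also run on simulated libraries, whose outcome is not given here. These gave all genes the same relative spread, so they do not show its power for genes that vary like Mmp13. Poisson intervals cover counting error only. The members and lists were chosen with earlier results of these data known. All members are named, and of each list up to 3 tested genes with the smallest p. Some genes that this rule names are not reported here. The rule also names the Mmp genes near the chromosome 9 members and, for each tested member, the 2 genes with the highest r. Ngp, Camp, Elane, Cxcr2, Retnlg, Stfa2l1, Junb, Hbegf and Mmp25, and the genes that overlap members, were named outside it. So were Tnnc2, Itgam, Rac2, Ptprc, Krt5, Krt14, Krt15, Itga6, Col17a1, Cdh3 and Dst. The same holds for Fosb, Fosl2, Jun, Jund, Atf3, Il1a, Tnf, Il17f, Tgfb1 and Tgfa. Alternatives changed the pseudocount, filter, scaling, moderation, weights, covariates, replicate block, reads (voom) and libraries left out.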

Additional observations from a re-analysis of the deposited data

How the results depend on the processing

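None of the 10 genes was called in any alternative in which it was tested (20 for 7 of the genes, 19 for Timp1, 3 for Mmp12 and 2 for Mmp10), and the count of genes called over the whole table, 1, moved between 0 and 68. It was 0 without an expression filter, with a filter at 0.1 FPKM, after rescaling to TPM and with the replicate block, 68 under array quality weights and 2 once skeletal muscle level was a covariate, and 0 to 14 when a library was left out (14 without Aim2 KO replicate 1). It stayed at 1 in the other settings, voom on the recovered reads included. No label ties a replicate number to a shared litter or day, so by the labels the block (0 genes and 0 members called) shares only a number. Deviations from the group means correlated by 0.351, 0.459 and 0.0302 for the replicates numbered 1, 2 and 3. The values for 1 and 2 were above those of every pair with unlike numbers. The highest of these was 0.213, for Aim2 KO replicate 3 with WT replicate 2. Whether the libraries were paired cannot be told. Directions turned under array quality weights and the skeletal muscle covariate for Mmp13 (-0.68 and -0.29, against 0.19 as reported) and Timp2 (0.050 and 0.036, against -0.10). Leaving out a library gave ranges of -0.0077 to 0.24 for Mmp2, -0.056 to 0.82 for Mmp3, -0.89 to 0.050 for Mmp9, -0.61 to 0.77 for Mmp13, -0.0068 to 0.18 for Mmp14, 0.25 to 0.60 for Timp1, -0.26 to 0.13 for Timp2 and -0.11 to 0.37 for Timp3. Without Aim2 KO replicate 3, its highest library, Timp1 fell below the expression filter, and in the other 19 alternatives it lay between 0.25 and 0.69, values conditioned on that filter. Under array quality weights and the skeletal muscle covariate Mmp9 was -0.99 and -0.62 (limma, unadjusted p = 0.0198 and 0.0992) and Timp1 0.57 and 0.48 (unadjusted p = 0.0053 and 0.0240), with adjusted p of 0.299 and 0.949 for Mmp9 and 0.195 and 0.698 for Timp1. The cause of these turns was not tested. Medians of all tested genes stayed within -0.01 to 0.03 under the scalings. Depth limits Mmp10 (64 reads in all) and Timp1 (140 reads).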

Other observations

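Mast cells store chymases and tryptases that can activate pro-MMPs. Of 10 mast cell markers, 7 were tested, 6 had positive differences and 0 were called (median 0.46), and 2 did not overlap between groups, both higher in Aim2 KO, where 4.98% of all tested genes were higher without overlap. Mcpt1, a chymase of mucosal mast cells, had 4.45, 3.66 and 7.22 FPKM in Aim2 KO replicates 1 to 3, against 1.27, 0.721 and 0.460 FPKM in WT replicates 1 to 3 (log2 difference 1.73, unadjusted p = 1.4e-04, adjusted p = 0.504 by limma). Mcpt2 had 2.33, 1.32 and 3.14 FPKM in Aim2 KO replicates 1 to 3, against 0.712, 0.467 and 0 FPKM in WT replicates 1 to 3 (log2 difference 1.22, unadjusted p = 0.0024, adjusted p = 0.91 by limma). Both genes, and Cpa3 among the 6 with positive differences, averaged under 1 FPKM in WT. They were tested only because Aim2 KO was high, a condition on their p-values and on these counts. The libraries ranked highest for Mcpt1, Aim2 KO replicates 3 and 1, were the lowest and the highest for Mmp9. These ranks compare transcripts, and the part of mast cells in the level or activation of any MMP was not tested.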
